A study of Mus musculus with 4 samples.

Results

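The 10 genes described here run the integrated stress response of the mouse: Atf4, Atf5, Ddit3 and Trib3, which act on transcription, Ppp1r15a and Ppp1r15b, which end the response, and Eif2ak1, Eif2ak2, Eif2ak3 and Eif2ak4, the kinases that start it. They were taken by symbol, with no measured value in the choice, and all 10 were found among the 32531 gene names counted. Counts came from 4 libraries of the cerebral cortex of adult mice, with no treatment named in the labels. All 4 libraries were from the transgenic line Cbln1-TRAP NIDA030, in which the Cbln1 gene's regulatory sequence drives the ribosomal protein Rpl10a fused to EGFP, so the input libraries carry the transgene too. Translating ribosome affinity purification (TRAP) pulls tagged ribosomes from the homogenate with anti-EGFP antibodies and keeps the mRNA bound to them. The 2 immunopurified (IP) libraries held that RNA, and the 2 input libraries are the comparison. Each group has libraries numbered 2 and 4. The labels do not say which cortical cells carry the tag, how many animals were used or whether the libraries came from separate animals. A p-value here therefore weighs a difference against the spread of these libraries alone, and how much of that spread is technical is not known. Sex-linked genes differed between the libraries numbered 2 and those numbered 4 (values below).

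In the integrated stress response, a kinase senses a stress and phosphorylates the alpha subunit of the initiation factor eIF2, which blocks eIF2B, the factor that recharges eIF2 with GTP. Initiation then slows on most mRNAs. Some mRNAs whose leader carries short upstream open reading frames (uORFs), with Atf4 as the textbook case, are instead translated more. ATF4 protein then raises genes for amino acid supply, tRNA charging and stress adaptation, and in neurons the same control of eIF2 is known for its part in synaptic plasticity and memory. A ribosome held on a uORF still carries its mRNA, so TRAP reports how much of an mRNA was captured and not how much protein was made from it.

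The upstream starts are shown because they are the feature through which this class of mRNA is controlled: 7 of the 10 main transcripts hold at least 1 ATG before the annotated start codon. Of all genes tested that have an annotated start codon, 51.9% hold 1 or more, 29.9% hold 2 or more and 19.1% hold 3 or more. Each sequence below is 24 bases, read 5′ to 3′ from the GENCODE vM21 transcript (build GRCm38), with the ATG in capitals.
Atf4 upstream start 2: gcggccaccATGgcgtattagagg
Atf4 upstream start 3: gcctaagccATGgcgctcttcacg
Atf4 annotated start: ccccacaacATGaccgagatgagc
Atf5 upstream start 1: gcccgcgcaATGgctctgtagccg
Atf5 upstream start 2: ttcgccgccATGgagtcctccacc
Atf5 annotated start: gtcacagccATGtcactcctggcg
Ddit3 upstream start 1: gattatatcATGttgaagatgagc
Ppp1r15a upstream start 3: gagggcgacATGaacccgctggct
Ppp1r15b upstream start 3: ctagccgggATGgacctaaccgcg

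Atf4 and Atf5 shared a layout. The Atf4 leader is 594 bases long, and its second upstream ATG, 196 bases before the annotated start, opens a frame of 3 codons (ATGgcgtattag, the stop included). Its next upstream ATG, 97 bases before the start, opens a frame of 59 codons that runs 83 bases into the coding sequence. In the 373-base Atf5 leader the first upstream ATG also opens a frame of 3 codons (ATGgctctgtag), and the second opens one of 58 codons that runs 56 bases into the coding sequence. All 4 of these upstream starts have a purine 3 bases before the ATG and a G just after it, the context that favours initiation. The annotated starts of both genes have the purine but not the G.

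Ddit3 has 2 upstream ATGs in the same frame, of 34 and 31 codons, that end before the coding sequence. GENCODE vM21 also gives that upstream frame a gene record of its own under the symbol Ddit3, at chr10:127290829-127293753. Ppp1r15a has upstream frames of 45, 34 and 26 codons, and Ppp1r15b has frames of 2, 8 and 51 codons, all closed before the coding sequence. Among the kinases, Eif2ak3 has 3 upstream ATGs, of which 2 open frames that run 269 and 1 bases into the coding sequence, Eif2ak2 has 1, whose frame runs 67 bases into it, and Eif2ak1 and Eif2ak4 have none. Trib3 also has none in its 176-base leader.

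The 4 libraries held between 39750468 and 47567384 reads assigned to genes, and 3 counts corresponded to between 0.0660 and 0.0790 CPM (gene counts scaled to a common library total). Between 18639 and 18753 genes had a count in the IP libraries and between 20350 and 20429 in the input libraries. Cbln1, the gene whose regulatory sequence drives the tag, was at 99.3 and 68.7 CPM in IP 2 and IP 4 and at 11.9 and 8.55 CPM in input 2 and input 4. Summed CPM of 8 neuronal markers lay between 30584 and 32617 in IP and between 14168 and 14734 in input, most of it from Snap25, and the other 7 summed to 5123 to 5571 in IP and 3637 to 3822 in input. The 8 astrocyte markers also summed higher in IP, at 1037 and 1137 in IP 2 and IP 4 and 818 and 805 in input 2 and input 4. The 8 oligodendrocyte markers summed to 1357 to 1384 in IP and 1720 to 1816 in input. Reads assigned to no feature made up 7.31 to 7.54% of the IP files' totals and 13.5 to 14.9% of the input files' totals. By their names the IP libraries were run on lane 1 and the inputs on lane 2, and an effect of the lane cannot be told apart from one of the purification. In bulk RNA, fewer cells of a type and less RNA per cell cannot be told apart either.

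Per kilobase of exon, Atf4 was the highest of the 10 genes in every library. It stood at 68.7 and 55.7 CPM per kb in IP 2 and IP 4 and at 88.2 and 66.8 in input 2 and input 4. Eif2ak1 followed, with means of 18.9 in IP and 14.6 in input, and then Ppp1r15b with 9.89 and 11.8 CPM per kb. These 3 genes did not overlap with each other or with the rest in either group. Ddit3 had means of 4.04 in IP and 5.80 in input, Atf5 of 3.56 and 3.87, Eif2ak3 of 2.23 and 2.17, Ppp1r15a of 1.74 and 2.63, and Eif2ak4 of 1.63 and 1.88 CPM per kb. In this middle range the order was not resolved everywhere: Ddit3 overlapped with Atf5, and Ppp1r15a with both Eif2ak3 and Eif2ak4, in IP, and Atf5 overlapped with Ppp1r15a in input. Eif2ak2 came next, at 0.746 in IP and 1.10 in input, and Trib3 was last.

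**Figure D1:**
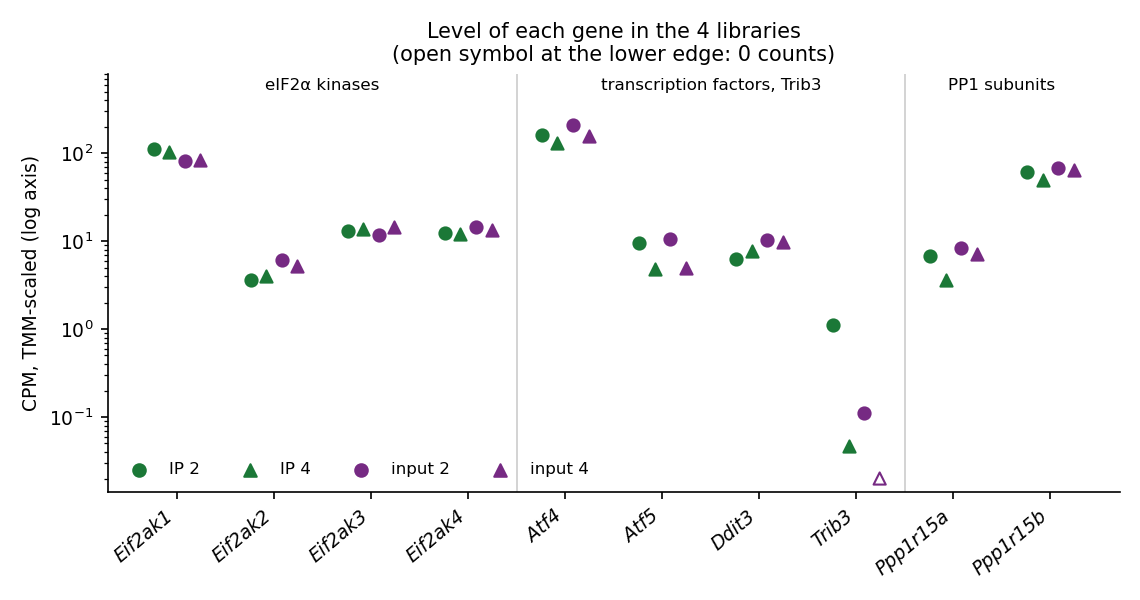
CPM (not divided by length) of each of the 10 genes on a log axis, with a green symbol for each of the 2 IP libraries and a purple one for each of the 2 input libraries. Atf4 lies highest in all 4 libraries, and Trib3 spreads from 0 in input 4 (open symbol at the lower edge) to 1.11 in IP 2.

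Of the 10 genes, 9 had enough counts for the test of IP against input. By edgeR's quasi-likelihood test with Benjamini-Hochberg adjustment over 16600 genes at 0.05, Eif2ak1 was higher in IP, Atf4 and Ddit3 were lower, and 6 did not pass. Over all genes tested, 23.4% were called higher and 22.4% lower, and 1 and 2 of 9 lie near or below those shares, so the counts say nothing particular about these genes. The median log2 fold change of the 9 was -0.25, against -0.04 over all genes tested and 0.12 over the genes whose mean reached 5 CPM. Both IP libraries lay below both input libraries for 5 of the 9 genes, against 37.8% of all genes, and above them for 1 of the 9, against 35.3%. The members called lower ranged from 0 to 6 over the alternative analyses, with 4 without IP 2, 1 without IP 4 and 0 without input 2 (0 also at an unadjusted p under 0.05 in edgeR). DESeq2 called 0 lower, with 2 at an unadjusted p under 0.05, where edgeR on all 4 libraries had 5.

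**Figure D2:**
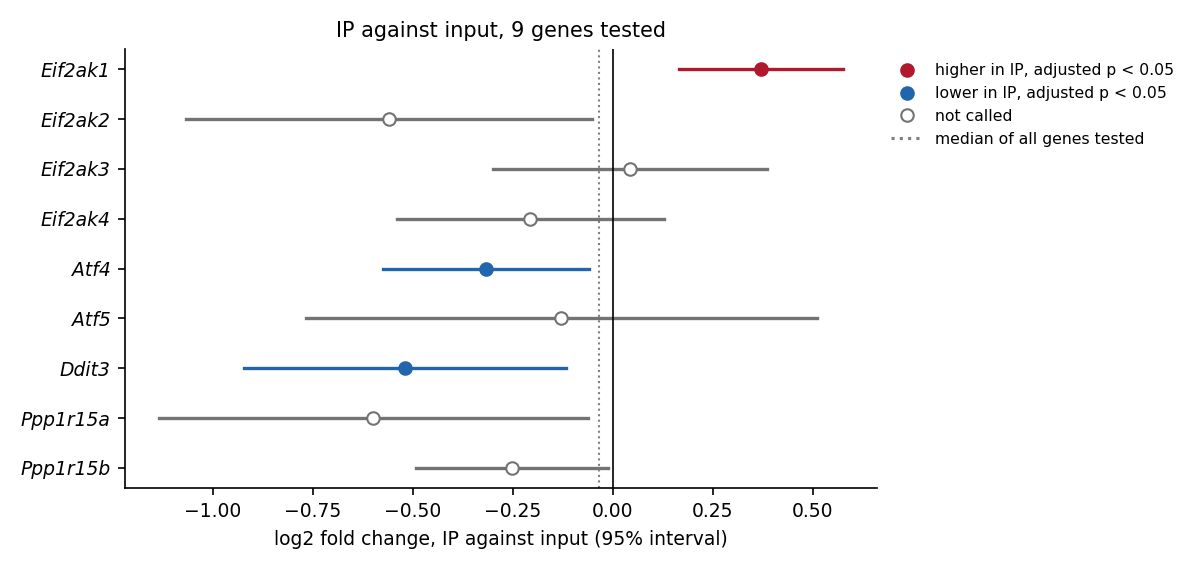
Log2 fold change of IP against input for the 9 tested genes, with 95% confidence intervals from edgeR and the median of all genes as a line. Eif2ak1 (0.37) is the only one called higher, and Atf4 (-0.32) and Ddit3 (-0.52) are called lower.

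Among the 4 eIF2 alpha kinases, Eif2ak1 was the most abundant per length and the only one that passed the test. Eif2ak1 (ENSMUSG00000029613.15, chr5:143817788-143904251, plus strand) encodes HRI, the kinase that senses heme shortage in red cell precursors and also responds to mitochondrial stress. It had 111 and 104 CPM in IP 2 and IP 4 and 82.0 and 84.1 CPM in input 2 and input 4. The IP values were both above the input values. The log2 fold change was 0.37 ± 0.10 (SE; 95% interval 0.16 to 0.57; adjusted p = 0.00452 by edgeR). It passed in 11 of 12 alternative analyses, with adjusted p from 7.16e-06 to 0.371. The exception was scaling by library size alone (0.11, adjusted p = 0.371), which moved the median of all genes by -0.26. Its exons overlap those of Aimp2 on the opposite strand over 487 bp (8.59%) and those of Ankrd61 over 172 bp, and whether the counting used strand is not given in the sources used here. Of 5 erythroid markers 3 were among the genes counted, and all 3 were called lower in IP, against 22.4% of all genes tested. Their summed CPM was 1.68 and 3.59 in IP and 9.81 and 10.03 in input. The part of red cells in the Eif2ak1 difference was not tested.

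The other kinases did not pass the test. Eif2ak2 (ENSMUSG00000024079.4, chr17:78852564-78882573, minus strand) encodes PKR, which binds double-stranded RNA in antiviral defence. It had 3.61 and 4.03 CPM in IP 2 and IP 4 and 6.03 and 5.22 CPM in input 2 and input 4. Both IP libraries lay below both inputs, with a log2 fold change of -0.56 ± 0.24 (SE; adjusted p = 0.0665 by edgeR). Eif2ak3 (ENSMUSG00000031668.14, chr6:70844515-70905245, plus strand) encodes PERK, the sensor of unfolded protein in the endoplasmic reticulum. Its levels were 13.1 and 13.8 CPM in IP 2 and IP 4 and 11.8 and 14.3 CPM in input 2 and input 4. The groups overlapped, and the log2 fold change of 0.04 had a 95% interval from -0.30 to 0.39. Eif2ak4 (ENSMUSG00000005102.13, chr2:118388618-118475234, plus strand) encodes GCN2, which senses uncharged tRNA. It had 12.4 and 11.96 CPM in IP 2 and IP 4 against 14.6 and 13.5 CPM in input 2 and input 4, with IP below input, and a log2 fold change of -0.21 (95% interval -0.54 to 0.13). Exons of Eif2ak3 share 485 bp (8.05%) and those of Eif2ak2 174 bp (3.40%) with a noncoding or unclassified gene on the opposite strand.

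Eif2ak1 made up most of the kinase mRNA per length. Of the summed CPM per kb of the 4 kinases, it took 81.2 and 79.6% in IP 2 and IP 4 and 73.9 and 74.1% in input 2 and input 4. Eif2ak3 took 9.01 to 11.8% over the 4 libraries. Eif2ak4 took 6.89 and 6.98% in IP against 10.004 and 9.02% in input, and Eif2ak2 took 2.93 and 3.43% in IP against 6.03 and 5.10% in input. These shares sum to 100% within a library, so they are not independent of each other.

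Atf4 and Ddit3 were the transcription factors called lower in IP, and neither call held in every analysis. Atf4 (ENSMUSG00000042406.8, chr15:80255184-80257541, plus strand) encodes the main effector of the response. It had 162 and 131 CPM in IP 2 and IP 4 and 208 and 157 CPM in input 2 and input 4. The groups overlapped, since IP 2 lay above input 4. The log2 fold change was -0.32 ± 0.12 (SE; adjusted p = 0.0411 by edgeR). It lost its call with DESeq2 (adjusted p = 0.0600), when IP 4 (-0.17, adjusted p = 0.274) or input 2 (-0.10, adjusted p = 0.604) was left out, and over 12 alternatives adjusted p ran from 0.000107 to 0.604.

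Ddit3 (ENSMUSG00000025408.15, chr10:127290774-127296288, plus strand) encodes CHOP, a C/EBP-family factor tied to cell death under lasting stress. It had 6.21 and 7.63 CPM in IP 2 and IP 4 and 10.1 and 9.73 CPM in input 2 and input 4. Both IP libraries lay below both inputs. The log2 fold change was -0.52 ± 0.19 (SE; adjusted p = 0.0332 by edgeR), and over 12 alternatives adjusted p ran from 0.00205 to 0.204. The call was lost with DESeq2 (0.0731) and without IP 2 (0.204), input 2 (0.126) or input 4 (0.0798). Its exons share 68 bp with Mars on the opposite strand, and Mars was higher in IP by 0.52. They also share 105 bp with the second Ddit3 record.

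For Atf5 no difference between the groups was seen beyond the spread of its libraries. Atf5 (ENSMUSG00000038539.15, chr7:44812256-44816658, minus strand) encodes a relative of ATF4 that acts in the mitochondrial stress response. It had 9.42 and 4.77 CPM in IP 2 and IP 4 and 10.5 and 4.97 CPM in input 2 and input 4. The libraries numbered 2 were high in both groups and those numbered 4 low. The log2 fold change of IP against input was -0.13, with a 95% interval from -0.77 to 0.51. Its exons share 82 bp with Nup62 and with Il4i1 on the opposite strand. Without IP 2 it was -0.68 and called lower (adjusted p = 0.0262 by edgeR), and over 12 alternatives the log2 fold change ran from -0.68 to 0.52 and adjusted p from 0.0262 to 0.923.

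Trib3 (ENSMUSG00000032715.9, chr2:152337422-152344032, minus strand) encodes a pseudokinase that CHOP and ATF4 switch on. Its reads numbered 42 in IP 2 but 2 in IP 4, while input 2 had 5 and input 4 had 0. Most of its reads were therefore in 1 library, IP 2, and it did not reach the count needed for the test. With no filter on low counts its log2 fold change was 3.30 (adjusted p = 0.0109 by edgeR), DESeq2 gave an adjusted p of 0.0710, and edgeR gave 0.000556 without IP 4 (4.24), 0.0142 without input 2 (7.58) and 0.214 without input 4 (2.35). These fitted values depend on how counts near 0 are treated. Without IP 2 it was again too low to test.

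The phosphatase subunits Ppp1r15a and Ppp1r15b lay lower in IP without passing the test. Ppp1r15a (ENSMUSG00000040435.12, chr7:45522916-45526268, minus strand) encodes GADD34, the induced subunit that brings protein phosphatase PP1 to eIF2. It had 6.68 and 3.56 CPM in IP 2 and IP 4 and 8.34 and 7.12 CPM in input 2 and input 4. IP lay below input, and the log2 fold change was -0.60 ± 0.26 (SE; adjusted p = 0.0634 by edgeR). It passed in 8 of 12 alternatives, with log2 fold changes from -1.10 (without IP 2, adjusted p = 0.000335) to -0.20 and adjusted p of up to 0.547. Ppp1r15b (ENSMUSG00000046062.5, chr1:133131143-133139783, plus strand) encodes CReP, the constitutive counterpart. It had 61.1 and 49.6 CPM in IP 2 and IP 4 and 67.1 and 64.6 CPM in input 2 and input 4. The groups did not overlap, and the log2 fold change was -0.25 ± 0.11 (SE; adjusted p = 0.0803 by edgeR). It passed in 4 of 12 alternatives, among them the analysis without IP 2 (-0.39, adjusted p = 0.0152 by edgeR) and that with the replicate number as a block (adjusted p = 0.0186), while without IP 4 it was -0.10 (adjusted p = 0.594, the highest of the 12; the lowest was 0.000840). Its exons share 640 bp (11.4%) with an unclassified gene on the opposite strand, and those of Ppp1r15a share 12 bp with Tulp2.

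Atf5 and Atf4 were lower in both libraries numbered 4 than in both numbered 2. This comparison of the libraries numbered 4 with those numbered 2, with the group kept in the model, was chosen after the values were seen, and the labels do not say what the numbers mark. Atf5 was 1.98 times as high in IP 2 as in IP 4 and 2.11 times as high in input 2 as in input 4. Its log2 difference, number 4 minus number 2, was -1.03 ± 0.20 (SE; adjusted p = 0.000327 by edgeR). Atf4 was 1.23 times as high in IP 2 as in IP 4 and 1.32 times in the inputs, a log2 difference of -0.35 ± 0.08 (SE; adjusted p = 0.0119 by edgeR). Of all genes tested, 0.596% were called in either direction, and of the 9 members these 2 were. Ppp1r15a had a log2 difference of -0.55 (adjusted p = 0.301), with ratios of 1.88 in IP and 1.17 in input, and Ddit3 of 0.11 (adjusted p = 0.933).

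**Figure D3:**
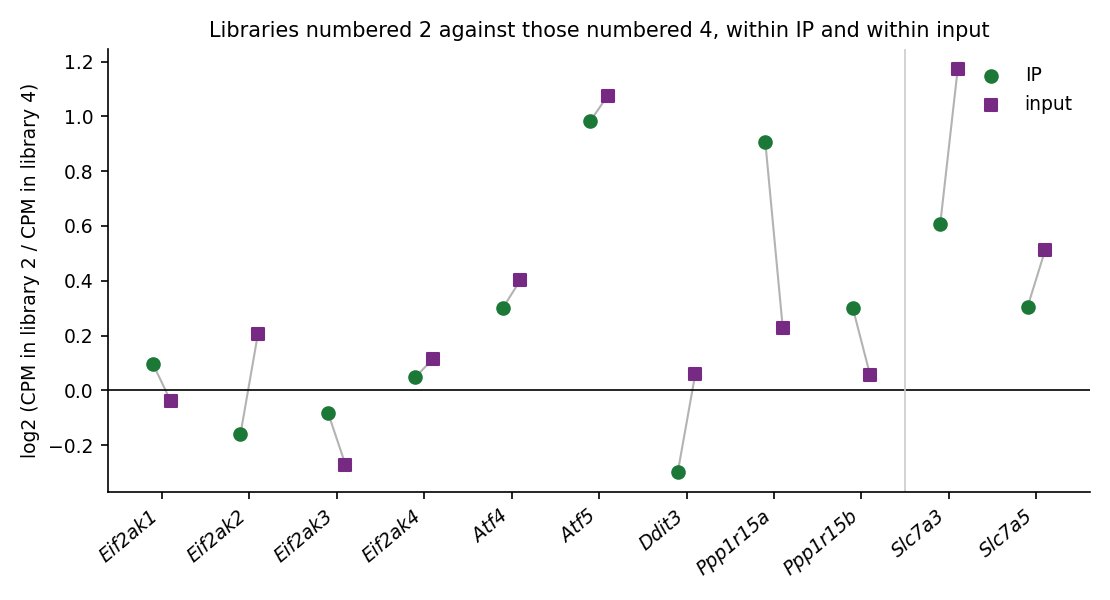
Log2 ratio of the CPM in library 2 to that in library 4, within IP (circles) and within input (squares), for the 9 tested members and, right of the line, 2 ATF4 targets, with a line joining the ratios of a gene. Atf5 lies high in both groups (ratios of 1.98 and 2.11), whereas Ddit3 lies on both sides of 0 (0.814 and 1.04).

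The comparison by number leaves 1 residual degree of freedom and depended on the tool. DESeq2 called 5 genes, with 572 at an unadjusted p under 0.05, against 99 and 1611 in edgeR, and neither Atf5 (adjusted p = 0.346) nor Atf4 (0.333) was among those 5. Over the alternatives adjusted p ran from 0.000251 to 0.346 for Atf5 and from 0.00720 to 0.333 for Atf4. Among 38 ATF4 targets, 2 were called, both lower in number 4, and both are amino acid transporters, named here after their values were seen. Slc7a3 had 10.3 and 6.78 CPM in IP 2 and IP 4 and 5.41 and 2.40 CPM in input 2 and input 4 (log2 difference -0.87, adjusted p = 0.0233 by edgeR, 0.0225 to 0.9997 over the alternatives). Slc7a5 had 52.1 and 42.1 CPM in IP and 36.8 and 25.8 CPM in input (-0.41, adjusted p = 0.0414 by edgeR, 0.0289 to 0.9997). The median of the 38 targets was -0.12, against -0.003 over all genes.

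Sex-linked genes, named after their values were seen, moved with the number too. Eif2s3y, the Y-linked copy of the eIF2 gamma subunit gene, had 14.0 and 7.80 CPM in IP 2 and IP 4 and 14.5 and 5.45 CPM in input 2 and input 4 (adjusted p = 3.51e-07 by edgeR). Its X-linked copy is similar in sequence, so its counts are uncertain. The Y-linked genes Ddx3y, Kdm5d and Uty were also called lower in number 4. Their log2 differences were -0.62, -0.56 and -0.71 (adjusted p = 1.23e-05, 0.00387 and 0.0292 by edgeR). Xist, the RNA that silences an X chromosome, was at 0 and 0.463 CPM in IP 2 and IP 4 and at 0.0440 and 3.05 CPM in input 2 and input 4. Cbln1 was lower in number 4 by a log2 difference of -0.51. Their part in the differences of Atf5 and Atf4 was not tested.

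Partners of these genes in the pathway were higher in IP in some lists and near the share of all genes in others. The lists were chosen with earlier results of these data known, so the counts describe them only. Some genes are in more than 1 list, among them Cebpb, Cebpg, Atf6, Hspa5 and Slc7a1, so the counts are not independent of each other. Of the 10 genes of eIF2, eIF2B and eIF5, 6 rose, with a median log2 fold change of 0.46. They are 66.7% of the 9 genes whose mean reached 5 CPM, against 34.3% of all genes. By edgeR and by DESeq2 0 fell, also 0 at an unadjusted p under 0.05 in edgeR, while scaling by library size alone gave 4 that rose and 1 that fell. All 5 subunits of eIF2B were among those that rose. Eif2b4, its delta subunit, had 20.7 and 18.3 CPM in IP against 9.51 and 9.29 CPM in input and rose by 1.05 ± 0.16 (SE; adjusted p = 2.38e-05 by edgeR). Eif2b2 rose by 0.74 and Eif2b1 by 0.73. Eif2s1, the eIF2 alpha subunit that the kinases phosphorylate, had 60.6 and 66.1 CPM in IP against 37.7 and 39.8 CPM in input and rose by 0.71 ± 0.11 (SE; adjusted p = 3.77e-05 by edgeR). Of the 3 PP1 catalytic subunits, which the PPP1R15 proteins bind, all 3 rose: Ppp1cb by 0.73, Ppp1cc by 0.59 and Ppp1ca by 0.27. The calls of Ppp1ca and Ppp1cc were lost in 6 and 2 of 12 alternatives, and with scaling by library size alone only 1 of the 3 rose.

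Of 9 activators and inhibitors of the kinases, 4 rose and 1 fell (median 0.33). The 4 are 44.4% of the list, all of it above 5 CPM, and lie near the 34.3% of all genes at that level. Impact, the neuronal inhibitor of GCN2 activation, had 515 and 519 CPM in IP against 295 and 264 CPM in input and rose by 0.89 ± 0.09 (SE; adjusted p = 2.57e-07 by edgeR). Hsp90ab1, a chaperone of the kinases, rose by 1.33, Abcf1, an eIF2-binding protein, by 1.08 and Hspa5, the chaperone that holds PERK inactive, by 0.68. Nck1, an adaptor that binds eIF2, fell by 0.40 on the log2 scale (adjusted p = 0.0487 by edgeR), a call that was lost in 7 of 12 alternatives, among them those without IP 2 and without input 4.

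More of the ATF4 target genes were higher than lower in IP, while Atf4 itself was on the lower side. Of 40 listed, 38 were tested, and 23 rose and 5 fell, with a median log2 fold change of 0.59. All 8 tRNA synthetases rose (median 1.02), and of the 30 other targets 15 rose and 5 fell (median 0.46). Over the 12 alternatives 18 to 26 rose and 3 to 6 fell. Scaling by library size alone gave 18 and 6, and 3 fell with DESeq2, with the stricter filter and without IP 4, input 2 or input 4. Where the mean reached 5 CPM, 34.3% of all rose and 20.5% fell, and of the 30 targets at that level 21 rose (70.0%) and 3 fell. Aars, the alanyl-tRNA synthetase gene, had 192 and 199 CPM in IP against 67.3 and 71.0 CPM in input and rose by 1.499 ± 0.10 (SE; adjusted p = 7.27e-10 by edgeR), though its exons share 1326 bp with Exosc6. Pck2, a mitochondrial enzyme of glucose synthesis, rose by 1.36, and Yars, the tyrosyl-tRNA synthetase gene, by 1.32.

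The 5 targets called lower with all 4 libraries were Slc7a11, Nupr1, Eif4ebp1, Cebpg and Jdp2. Slc7a11, the cystine transporter, had 22.9 and 24.9 CPM in IP and 62.5 and 53.3 CPM in input, with a log2 fold change of -1.27 ± 0.12 (SE; adjusted p = 1.29e-07 by edgeR). Gdf15, a secreted stress signal, had 0 counts in both IP libraries and 8 and 2 in the inputs, and Fgf21 had 1 count in IP 4 and 0 elsewhere, so neither was tested. Of the 8 neuronal markers 5 were higher in IP. The other 3 did not pass, with Gad2 on the lower side (-0.24) and Gad1 (0.28) and Rbfox3 (0.17) on the higher. Snap25 had a mean of 26254 CPM in IP and 10721 in input. Of the 8 astrocyte markers 3 rose and 3 fell, and of the 8 oligodendrocyte markers 2 rose and 5 fell. All these markers had a mean of at least 5 CPM, where 34.3% of all genes rose and 20.5% fell. The part of these cell types in the changes of the target genes was not tested.

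**Figure D4:**
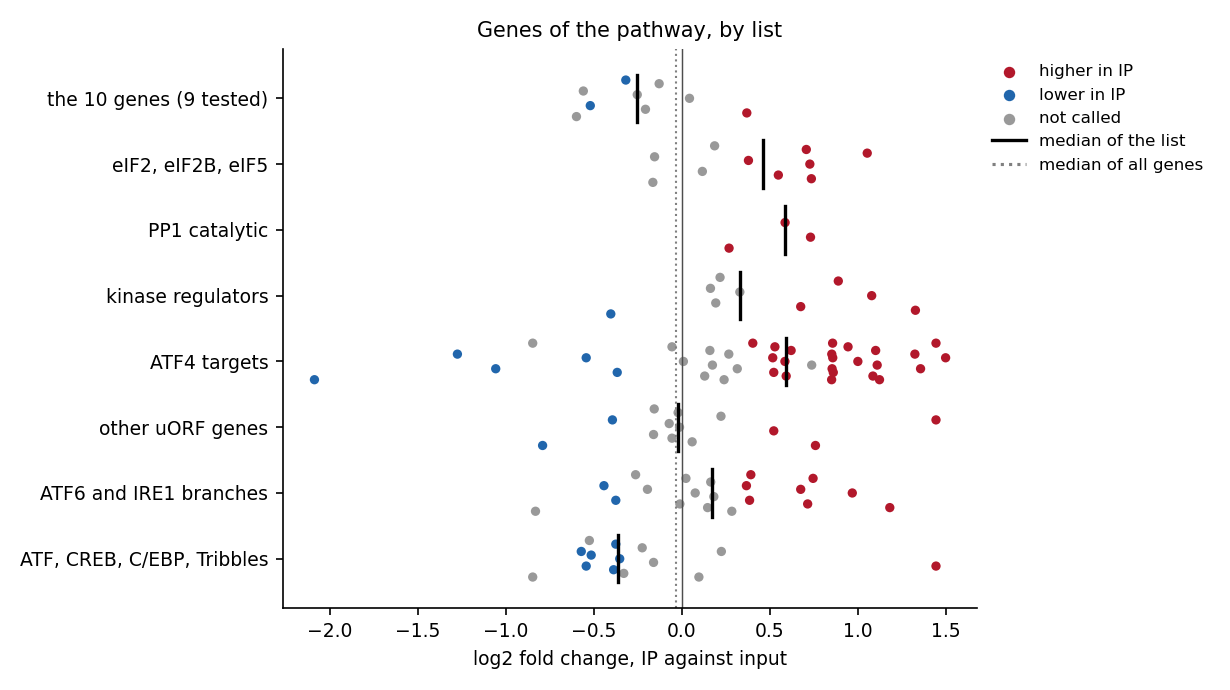
Log2 fold change of IP against input for every tested gene of the member and pathway lists, a point per gene, with each list's median and the median of all genes as a line. The ATF4 targets centre on 0.59 and the 10 eIF2, eIF2B and eIF5 genes on 0.46, whereas the 9 members centre on -0.25.

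Relatives of the transcription factors were more often called lower than higher in IP. Of 14 genes of the ATF, CREB, C/EBP and Tribbles families, 6 fell and 1 rose (median -0.36). All 6 were among the 10 whose mean reached 5 CPM, a level at which 20.5% of all genes fell. Creb1, the cAMP-responsive factor, had 76.5 and 73.8 CPM in IP against 111 and 113 CPM in input and fell by 0.57 on the log2 scale (adjusted p = 9.60e-05 by edgeR). Cebpg, a partner of ATF4, was lower at -0.54, Atf7 at -0.51 and Trib2, a paralogue of Trib3, at -0.39. The other paralogue, Trib1, lay on the higher side without passing (0.23). It had 96.4 and 84.0 CPM in IP against 77.6 and 76.6 CPM in input. Cebpb rose by 1.44 at a low level, with 2.37 and 1.39 CPM in IP against 0.726 and 0.647 CPM in input. It shares 312 bp of its exons with Tmem189 on the opposite strand. Of the other genes named from the lists, Atf7, Cebpg, Eif2b4, Hsp90b1, Ibtk, Jdp2, Pck2, Pdia6, Ppp1ca, Ppp1cb, Ucp2 and Yars also share exon sequence with another gene, so their counts are less certain.

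The other arms of the unfolded protein response held genes that moved either way. Of 20 genes of the ATF6 and IRE1 arms 8 rose and 2 fell (median 0.17), or 5 and 5 with scaling by library size alone. Of the 18 whose mean reached 5 CPM 44.4% rose, near the 34.3% of all genes. The chaperone genes Calr, Hyou1, Hsp90b1 and Pdia6 rose by 1.18, 0.97, 0.75 and 0.72. The sensor gene Atf6 was lower at -0.37 and Edem1, which marks misfolded glycoproteins for disposal, at -0.44.

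Of 13 other genes with a known regulatory uORF, 3 rose and 2 fell (median -0.02), or 2 and 6 with scaling by library size alone. Only 1 rose without IP 2 or without input 4, 4 rose without IP 4, and 1 fell without IP 4 or without input 2. Of the 11 listed genes whose mean reached 5 CPM 2 rose (18.2%), against 34.3% of all genes. At that level 2 also fell, near the 20.5% of all genes. Eprs, a tRNA synthetase gene, rose by 0.76 and Slc7a1, an arginine transporter, by 0.52. Eprs and Cebpb, which rose, and Slc38a2, which was not called, hold no upstream ATG in the main transcript used here. Ucp2, a mitochondrial carrier, was lower at -0.79 and Ibtk at -0.39. The calls of Slc7a1 and Ibtk were lost in 3 and 4 of 12 alternatives.

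Across all genes whose mean reached 5 CPM, the log2 fold change was lower where the leader held more upstream ATGs. Its median was 0.22 in 4856 genes with none, 0.11 in 2290 genes with 1, 0.08 in 1137 genes with 2 and 0.002 in 2020 genes with 3 or more. The share called higher went from 41.2% with none to 25.1% with 3 or more. After a correction for GC content and length the medians were 0.27, 0.15, 0.10 and 0.05. Leader length moved with the class, from a median of 115 bases with none to 433 with 3 or more, and its part in the pattern was not tested. All but 2 of the 9 tested members lay below the median of their class, the 2 being Eif2ak1 (0.37, no upstream ATG) and Eif2ak3 (0.04, with 3). Below the lower quartile of their class were Ppp1r15a (-0.60, with 3, quartile -0.35), Ddit3 (-0.52, with 2, quartile -0.29), Eif2ak2 (-0.56, with 1, quartile -0.26) and Eif2ak4 (-0.21, with none, quartile -0.14). Atf4 (-0.32) and Ppp1r15b (-0.25), with 3, and Atf5 (-0.13), with 2, lay between the lower quartile and the median. Eif2ak2 had a mean under 5 CPM and so was not itself in its class. The members below their lower quartile had 95% intervals that spanned it. These ran from -1.13 to -0.06 for Ppp1r15a and from -0.92 to -0.12 for Ddit3. For Eif2ak2 the interval was -1.07 to -0.05, and for Eif2ak4 it was -0.54 to 0.13. The place of these genes below the quartile was therefore not resolved. Genes of every class lie below its median and lower quartile by definition, and an excess of members there was not tested.

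**Figure D5:**
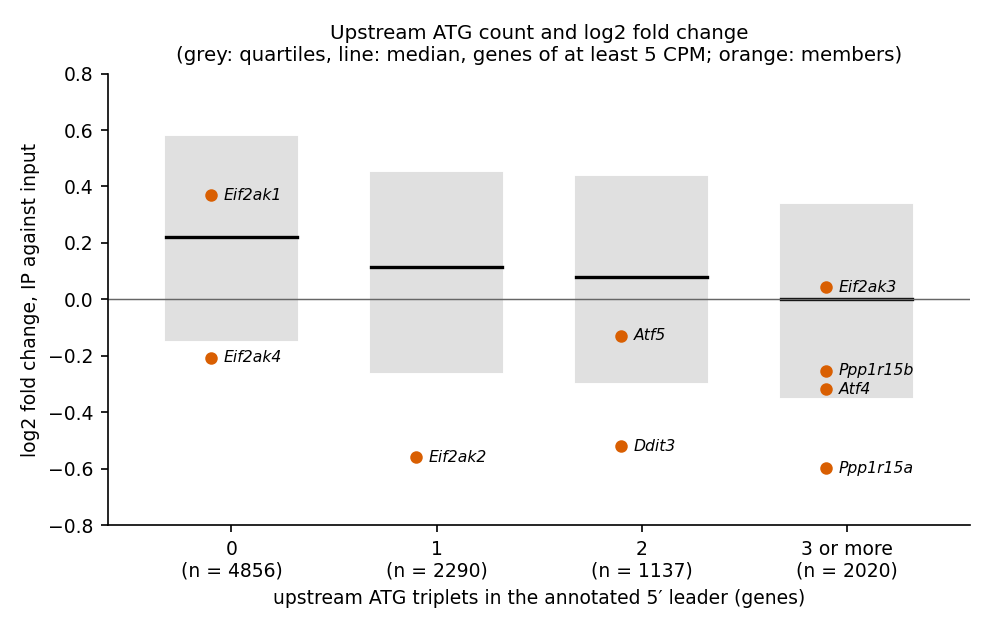
Log2 fold change of IP against input by number of upstream ATGs in the leader, for genes whose mean reached 5 CPM, as class medians (lines) and quartiles (grey boxes), with the 9 tested members as orange points, Eif2ak2 included although its mean is under 5 CPM. The medians go from 0.22 with no upstream ATG to 0.002 with 3 or more. The estimates of Ppp1r15a, Ddit3, Eif2ak2 and Eif2ak4 lie below the lower quartile of their classes, with 95% intervals that span it.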

How the data were processed

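The deposited files hold raw read counts per gene, 1 file per library, made by the authors with STAR 2.0.0e and HTSeq on the mouse build mm10, per the submitters' processing notes. The gene annotation behind the counts is not given in the sources used here, nor is the strand setting. Lines of the files that name no gene did not enter the library totals: over the 4 libraries, 7.31 to 14.9% of each file's total had no feature, 1.54 to 5.09% were ambiguous and 30.7 to 38.0% were not unique. The tests ran in edgeR 4.0.16 under R 4.3.3: TMM scaling, filterByExpr (minimum count 10, minimum total 15), a quasi-likelihood test between the 2 IP and the 2 input libraries, and Benjamini-Hochberg adjustment over 16600 genes at 0.05. CPM values are TMM-scaled, and levels per kb use the union of exons. The biological coefficient of variation was 12.5%. Names were matched to GENCODE vM21: 23155 of 32531 by symbol and 773 by synonym. Upstream ATGs were read from the main transcript of each gene. Near copies were looked for with blastn 2.17.0. The code was tested on simulated data.

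The members and lists were chosen with earlier results of these data known. Named were all 10 members, up to 4 called genes of each pathway list with a mean of 5 CPM or more, those of largest change, and the most abundant gene of each cell marker list. Genes named outside this rule were chosen after their values were seen. Alternatives were scaling by library size, DESeq2 1.42.0 and its size factors, no filter or a stricter one (1 CPM), a correction for GC content and length, the replicate number as a block, and leaving out each library.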

Additional observations from a re-analysis of the deposited data

How the results depend on the processing

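For the genes named, 458 of 516 values under the alternatives kept their direction and their side of the threshold, 27 lost a call and 16 gained one. The other 15 changed sign in 4 genes that were not called (Atf5, Eif2ak3, Gpr17 and Rgs5), and 0 called values reversed. Scaling by library size alone moved the counts of all genes to 2151 higher and 5910 lower, against 3886 and 3719, and those of the members to 0 higher and 6 lower, against 1 and 2, with 0 higher also at an unadjusted p under 0.05 in edgeR. That scaling shifts the median of all genes by -0.26. The GC content and length correction gave 4308 higher and 2586 lower. Members higher were 2 without the filter on low counts, since Trib3 is then tested. Members lower were 0 with DESeq2 and 5 with the stricter filter. Leaving out 1 library gave 1 to 2 members higher and 0 to 4 lower, and 3323 to 3720 genes higher and 2670 to 3421 lower. A lone library left in a group is assumed to vary like the other group.

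With the replicate number as a block, 4314 genes were higher and 4037 lower, and 1 member was higher and 4 lower: Ppp1r15a (-0.65, adjusted p = 0.00684 by edgeR) and Ppp1r15b (-0.26, 0.0186) joined Atf4 and Ddit3. The labels do not say that a shared number marks a shared animal or batch, so the block is given here only as an alternative. The deviations of IP 2 and input 2 from their group means correlated at 0.116 across genes. That value is taken over all genes and does not decide whether the libraries are paired. Sex-linked genes differed by number in both groups. In the comparison of libraries numbered 4 with those numbered 2, whose alternatives were also chosen after seeing the data, DESeq2 called 5 genes and the GC content and length correction 59, against 99. With that correction Atf4 had an adjusted p of 0.0628. The causes of these changes were not tested, other than those that follow from the setting itself. With 2 libraries a group, small differences such as those of Eif2ak3 and Eif2ak4 cannot be resolved, and levels near 3 counts, as for Trib3, carry little information.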
